A study of Homo sapiens with 16 samples.

Results

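The genes described here are SREBF1, which encodes the transcription factor SREBP1, and 9 enzymes that build, lengthen and desaturate fatty acids, namely ACLY, ACACA, FASN, SCD, ELOVL5, ELOVL6, ELOVL7, FADS1 and FADS2. They were chosen by name and matched by Ensembl ID, and make up 10 of the 60676 gene IDs in the count files. On GRCh38 with the GENCODE v29 annotation, chromosome 17 holds SREBF1 (chr17:17810399-17837002, minus strand), ACACA (chr17:37084988-37406818, minus strand), ACLY (chr17:41866908-41930542, minus strand) and FASN (chr17:82078333-82098332, minus strand). Chromosome 11 holds FADS2 (chr11:61792980-61867354, plus strand) and, within its annotated span, FADS1 (chr11:61799625-61829318, minus strand). The others are SCD (chr10:100347124-100364834, plus strand), ELOVL5 (chr6:53267398-53349179, minus strand), ELOVL6 (chr4:110045846-110199199, minus strand) and ELOVL7 (chr5:60751791-60844389, minus strand). All 10 had at least 725 counts in every library and were among the 21810 genes that passed the low-count filter. Gene expression was measured by sequencing of total RNA, after reduction of ribosomal RNA, in LNCaP, an androgen-responsive line from a lymph node metastasis of human prostate cancer. The first group was LNCaP with a CRISPR-Cas9 double knockout (DKO) of RB and p53, kept for 6 days in 50 µM enzalutamide (EZ), an antagonist of the androgen receptor. The second group was DKO cells in the same volume of the solvent DMSO, the third was wild-type (WT) LNCaP in EZ and the fourth was WT LNCaP in DMSO, all for 6 days and in medium with fetal bovine serum. Each group had 4 libraries, 16 in all. Whether the DKO cells were 1 clone or a pool, and whether the replicates were separate cultures, is not given in the sources used here, so the p-values speak only to the variation among these libraries, part of which can be technical.

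ATP citrate lyase (ACLY) makes cytosolic acetyl-CoA from citrate, acetyl-CoA carboxylase alpha (ACACA) turns it into malonyl-CoA, and fatty acid synthase (FASN) joins these units into palmitate. ELOVL6 lengthens palmitate to stearate, and stearoyl-CoA desaturase (SCD) puts the first double bond into both, which gives palmitoleate and oleate. FADS2 and FADS1 are the desaturases that act in turn on polyunsaturated fatty acids, ELOVL5 lengthens the products between them, and ELOVL7 lengthens long-chain acyl-CoAs, mainly saturated ones. SREBP proteins are held in the endoplasmic reticulum by SCAP and the INSIG proteins and are released to the nucleus when sterols are low. SREBP1 drives mainly the fatty acid genes, and SREBP2, from SREBF2, mainly the cholesterol genes. Androgens raise the expression of lipogenic enzymes in LNCaP cells, and high FASN is a known feature of prostate cancer.

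Promoter sequences are shown for ACLY, SCD, ELOVL7 and FADS1, 4 of the 5 genes that were lower with EZ in the drug effect averaged over both genotypes. They are RefSeq windows on GRCh38.p14 that run from 250 bases before to 50 bases after an annotated start, and 9 of the 10 genes matched 13 such windows. FASN matched none. The windows shown lie at chr17:41918973-41919272 on the minus strand for ACLY, chr10:100346983-100347282 on the plus strand for SCD, chr5:60844220-60844519 on the minus strand for ELOVL7 and chr11:61816954-61817253 on the minus strand for FADS1. They are written 5′ to 3′ along the gene, and capitals mark the NF-Y box (CCAAT, or ATTGG on the other strand) and the Sp1 box (GGGCGG, or CCGCCC on the other strand).
ACLY: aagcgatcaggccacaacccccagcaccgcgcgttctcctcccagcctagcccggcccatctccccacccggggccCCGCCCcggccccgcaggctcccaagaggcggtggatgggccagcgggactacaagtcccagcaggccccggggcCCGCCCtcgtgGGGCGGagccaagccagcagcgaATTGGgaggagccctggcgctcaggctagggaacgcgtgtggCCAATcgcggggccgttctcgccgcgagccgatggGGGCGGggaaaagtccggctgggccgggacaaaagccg
SCD: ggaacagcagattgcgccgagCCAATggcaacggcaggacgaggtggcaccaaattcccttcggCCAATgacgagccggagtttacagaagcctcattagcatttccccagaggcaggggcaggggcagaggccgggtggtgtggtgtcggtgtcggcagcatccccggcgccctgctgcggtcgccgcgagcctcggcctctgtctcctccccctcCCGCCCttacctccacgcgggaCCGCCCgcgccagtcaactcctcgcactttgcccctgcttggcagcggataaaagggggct
ELOVL7: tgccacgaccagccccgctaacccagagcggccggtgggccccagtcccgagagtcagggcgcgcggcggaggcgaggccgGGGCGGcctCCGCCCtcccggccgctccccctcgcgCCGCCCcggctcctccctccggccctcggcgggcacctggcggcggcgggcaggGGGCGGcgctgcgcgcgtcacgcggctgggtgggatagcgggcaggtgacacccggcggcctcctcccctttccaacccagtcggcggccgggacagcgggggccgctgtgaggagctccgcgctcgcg
FADS1: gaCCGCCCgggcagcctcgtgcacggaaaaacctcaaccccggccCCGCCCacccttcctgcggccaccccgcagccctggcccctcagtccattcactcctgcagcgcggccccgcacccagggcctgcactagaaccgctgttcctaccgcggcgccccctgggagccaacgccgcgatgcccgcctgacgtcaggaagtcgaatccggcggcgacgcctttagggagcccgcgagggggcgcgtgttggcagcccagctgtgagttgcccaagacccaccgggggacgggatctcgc

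Both strands of the 13 windows were searched for 7 motifs, and the shares are set beside those in all 35116 RefSeq windows of the same length. The NF-Y box was present in 7 of the 13 windows (34.6% of all windows), which belong to ACLY, SCD, ELOVL5, FADS2 and ACACA. The Sp1 box was present in 10 of the 13 (45.0% of all windows). Some genes have more than 1 window. The windows of ACLY overlap each other, as do those of FADS2, and ACLY sites in the shared part count in each window. These counts are thus of windows and not of genes. The sterol regulatory element in the form TCACNCCAC, which is bound by SREBP, was present in 0 of the 13 (1.13% of all windows), and the E-box CACGTG in 1, that of ELOVL5 (7.26%). Of the E2F sites, TTTGGCGC was present in 1 window of ACACA (0.652%) and TTTCGCGC in 0 (0.515%), and an androgen receptor half-site pair, AGAACA and TGTTCT with NNN between them, was present in 0 (0.0028%). Matches of different motifs shared no bases in the 13 windows. A match is a run of letters in the window, and the lack of one says only that these letters are not there.

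Library totals ran from 11823438 to 47678648 counts. Of the targeted genes, RB1 followed the labels, at 9.04 to 13.4 CPM (the count relative to the library's total, after TMM scaling) in the 8 DKO libraries and 95.6 to 128 CPM in the 8 WT libraries. The 9 markers of LNCaP identity summed to 2558 to 3428 CPM in DKO EZ, 2388 to 3396 in DKO DMSO, 4470.4 to 5299 in WT EZ and 3453 to 5148 in WT DMSO. The 6 adipocyte markers summed to 20.4 to 39.3 CPM in DKO EZ, 10.3 to 16.4 in DKO DMSO, 20.2 to 32.9 in WT EZ and 10.4 to 21.6 in WT DMSO, most of it PPARG (9.17 to 37.6 CPM), while ADIPOQ, LEP, CIDEC and FABP4 were at or near 0 (at most 0.232 CPM). The 5 fibroblast markers summed to 38.1 to 52.1 CPM in DKO EZ, 27.1 to 46.8 in DKO DMSO, 15.3 to 21.4 in WT EZ and 16.8 to 22.3 in WT DMSO, most of it COL1A1 (13.9 to 43.7 CPM). The 3 endothelial markers summed to 2.81 to 17.3 CPM and the 4 leukocyte markers to at most 0.340 CPM over all libraries. The summed level of 15 mitosis genes differed between libraries, at 416 to 1529 CPM in DKO EZ, 990.0 to 2438 in DKO DMSO, 226 to 976 in WT EZ and 299 to 1826 in WT DMSO. Its lowest values were those of WT EZ replicate 1 (226), WT DMSO replicate 4 (299) and DKO EZ replicate 1 (416). WT DMSO replicate 4 also had the highest level of SCD and of INSIG1 among the 16 libraries. In a further split, RN7SL1, a structural RNA, took 0.220% to 0.621% of the counts in 6 libraries (replicate 1 of both WT groups, replicates 1 and 2 of both DKO groups) and 0.0481% to 0.117% in the other 10. The set of 6 holds 1 library of each WT group, so comparisons were refitted in the set of 10 alone. What these differences contribute to the results was not tested beyond the values given with them.

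Per kilobase of exon, SCD had the highest mean level of the 10 genes in all 4 groups, followed by FASN and ACLY. SCD averaged 264 ± 52.2 CPM per kilobase in DKO EZ, 445 ± 105 in DKO DMSO, 342 ± 75.3 in WT EZ and 802 ± 398 in WT DMSO (SD, n = 4 each). FASN averaged 96.3 ± 13.8 CPM per kilobase in DKO EZ, 168 ± 40.0 in DKO DMSO, 219.7 ± 59.2 in WT EZ and 310.2 ± 41.7 in WT DMSO. The low end of the order differed by genotype: FADS1 was lowest in both WT groups (11.7 ± 1.19 CPM per kilobase in EZ and 19.9 ± 6.14 in DMSO), while ELOVL6 was lowest in both DKO groups (14.9 ± 3.94 in EZ and 18.1 ± 5.03 in DMSO). Neighbours in the order often lay within their spread, such as ACACA and ELOVL5 in WT DMSO (118 ± 4.00 and 119 ± 15.6 CPM per kilobase), or ELOVL7 and ELOVL6 in DKO EZ (15.3 ± 4.16 and 14.9 ± 3.94). Lengths are those of all annotated exons, so a gene that uses a short isoform reads low on this scale.

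**Figure D1:**
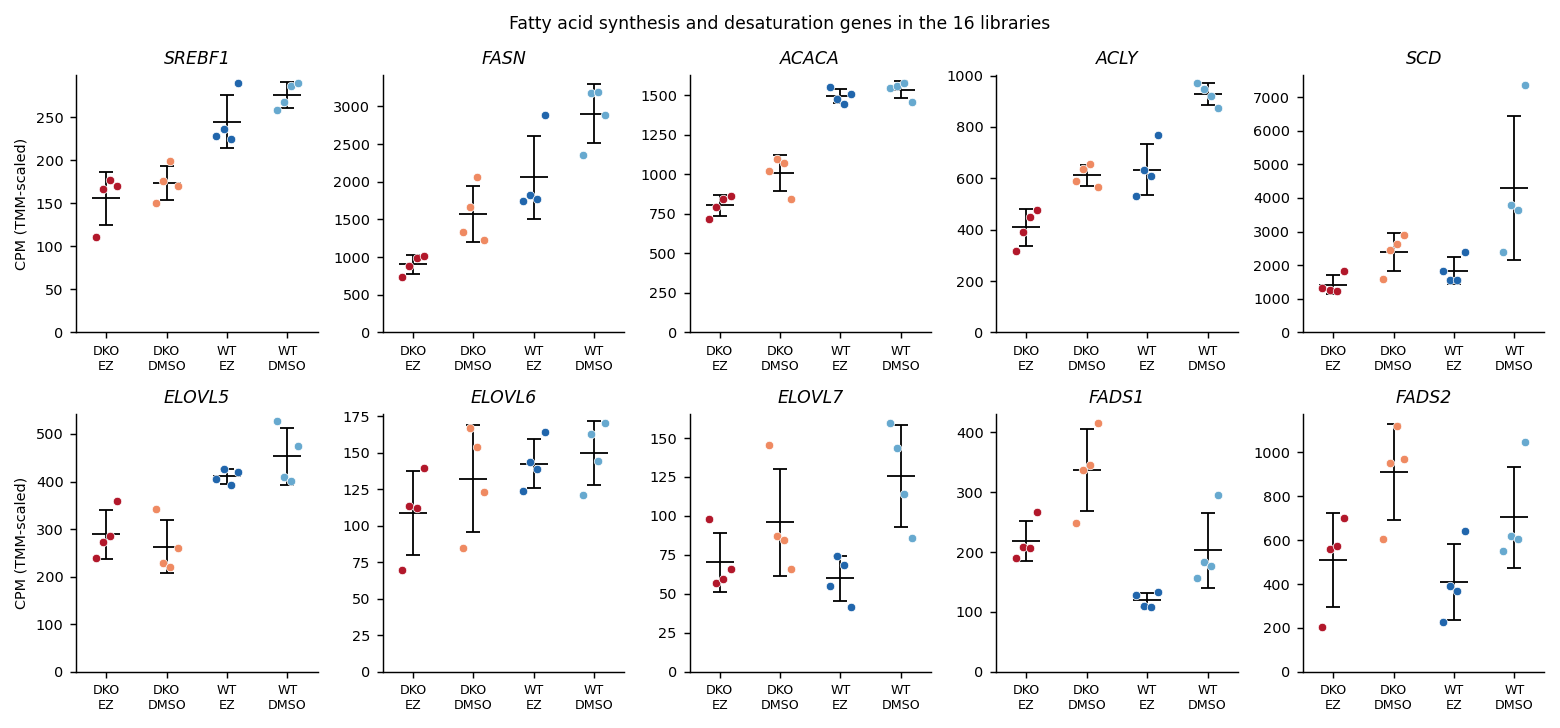
Level of each of the 10 genes in CPM (TMM-scaled, linear axis from 0) in the 4 libraries of DKO EZ, DKO DMSO, WT EZ and WT DMSO; points are libraries in order of replicate number, and bars show the mean and SD (n = 4). SREBF1, FASN, ACACA, ACLY and ELOVL5 are lower in both DKO groups than in the WT groups of the same treatment, FADS1 is higher in DKO, and WT DMSO replicate 4 stands at 7359 CPM for SCD.

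Transcripts for the supply and synthesis of palmitate (ACLY, FASN) and for desaturation (SCD, FADS1) were lower with EZ, as was ELOVL7, while SREBF1, ACACA, ELOVL5 and ELOVL6 did not pass the test in either genotype or in their average. FADS2 missed the threshold in the average (edgeR adjusted p = 0.0564) and passed with the replicate number fitted as a block (0.000378). With the drug effect averaged over both genotypes, 5 of the 10 genes fell and 0 rose by edgeR's quasi-likelihood test with Benjamini-Hochberg adjustment over all genes, against 3.32% of all tested genes that fell and 5.99% that rose. These were SCD (−0.99 ± 0.20 SE on the log2 scale, adjusted p = 0.00437), ELOVL7 (−0.76 ± 0.18, adjusted p = 0.015), FADS1 (−0.69 ± 0.13, adjusted p = 0.00308), FASN (−0.65 ± 0.14, adjusted p = 0.00564) and ACLY (−0.57 ± 0.09, adjusted p = 0.00113). The median log2 fold change of the 10 genes was −0.61, against −0.021 over all tested genes. No single library ended any of these 5 calls when left out. Among only the 10 libraries with little RN7SL1, SCD and FADS1 passed (−1.14 and −0.79, adjusted p = 0.0282 and 0.0275), and FASN, ACLY and ELOVL7 had log2 fold changes of −0.62, −0.42 and −0.58 (adjusted p = 0.109, 0.0603 and 0.13). A lower transcript level cannot be told apart from fewer cells with that transcript in such bulk samples.

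Within genotypes, 2 of the 10 genes (ACLY and FASN) fell in DKO cells, where 0.445% of all tested genes fell, and 4 (ACLY, SCD, ELOVL7 and FADS1) fell in WT cells, where 1.07% did. None of the 10 rose, against 1.03% of all tested genes in DKO and 2.25% in WT. Among the 10 libraries with little RN7SL1 the counts were 0 in DKO and 1 (SCD) in WT, where 3 and 112 of all 23416 tested genes fell. Without replicate 1 of both EZ groups they were 0 and 0, where 56 and 155 of all 22754 tested genes fell. The medians over the 10 genes were −0.52 in DKO and −0.52 in WT, against 0.0057 and −0.029 over all tested genes. EZ and DMSO libraries of a genotype with the same replicate number also deviated together from their group means, so the drug effect was fitted with the replicate number as a block within each genotype as well. With that block, 5 genes fell in DKO (FASN, ACLY, SCD, FADS1 and FADS2; 3.12% of all tested genes fell) and 6 in WT (these 5 and ELOVL7; 4.44% fell). In the average over both genotypes the block gave 6, the 5 above and FADS2, against 8.73% of all tested genes that fell. All 8 pairs of libraries had a lower level in EZ than in DMSO for each of ACLY, FASN, SCD, ELOVL7, FADS1 and FADS2, although the pair of WT replicate 4 for FASN (−0.0021 log2) and of DKO replicate 4 for ELOVL7 (−0.0022) barely differed. The share of all tested genes with all 8 pairs lower was not counted, so these pairs are a description. For SREBF1 and ELOVL6, 6 of 8 pairs were lower in EZ, for ACACA 5 and for ELOVL5 4. The SREBF1 pairs not counted as lower, those of replicate 4, also barely differed (0.0015 log2 in WT and 0.0074 in DKO).

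**Figure D2:**
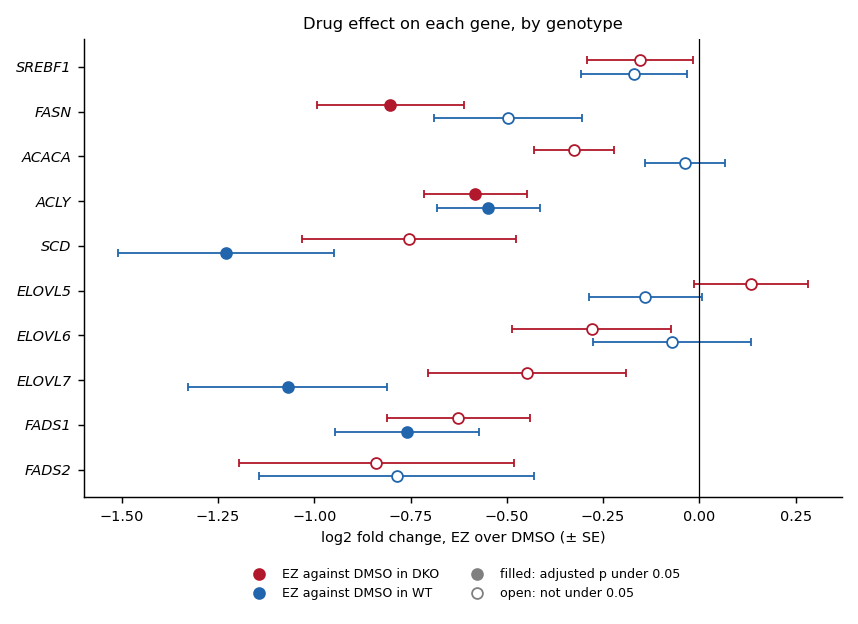
Log2 fold change of EZ over DMSO for the 10 genes (horizontal axis), fitted within DKO (red, upper of each pair) and within WT (blue, lower), with SE as bars; filled points had an edgeR adjusted p under 0.05. The fits shown have no replicate block. ACLY is filled in both genotypes, FASN in DKO, and SCD, ELOVL7 and FADS1 in WT.

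ACLY was the 1 gene of the 10 that fell in both genotypes without the replicate block. With the block, ACLY, FASN, SCD, FADS1 and FADS2 fell in both. The fits that leave out 1 library, here and below, have no block. ACLY stood at 315, 391, 449.9 and 478 CPM in replicates 1 to 4 of DKO EZ, against 590.2, 636, 655 and 565 CPM in DKO DMSO, and every EZ library was below every DMSO library (as for 4.41% of all tested genes). In WT it stood at 530.3, 632, 607 and 767 CPM in EZ, against 971, 947, 919 and 872 CPM in DMSO, again without overlap (3.81% of all tested genes). The fall was 0.58 ± 0.13 (SE) on the log2 scale in DKO (edgeR adjusted p = 0.0386) and 0.55 ± 0.13 in WT (adjusted p = 0.0304). The call in WT was lost when any of replicates 1 to 3 of WT DMSO or WT EZ was left out, with adjusted p of up to 0.163 (without WT EZ replicate 1). That in DKO was lost without any of replicates 1 to 3 of DKO EZ, DKO DMSO or WT DMSO or replicates 2 or 3 of WT EZ (adjusted p of up to 0.13, without DKO EZ replicate 1). With the replicate block the adjusted p was 0.0124 in DKO and 0.0113 in WT.

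FASN was at 729, 875, 994 and 1008 CPM in DKO EZ, against 1334, 1663, 2061 and 1232 CPM in DKO DMSO, so that all 4 EZ libraries were below all 4 DMSO libraries. In WT it was at 1746, 1827, 1770.0 and 2887 CPM in EZ, against 2357, 3174, 3196 and 2891 CPM in DMSO; replicate 4 of WT EZ lay inside the range of the WT DMSO libraries and the other 3 lay below it. FASN fell by 0.80 ± 0.19 on the log2 scale in DKO (edgeR adjusted p = 0.0464). The WT value, −0.50 ± 0.19, had an adjusted p of 0.192, and of 0.0436 with the replicate block, where DKO had 0.00979. Without the block, the DKO call was lost when any 1 of 12 libraries was left out: every DKO library but DMSO replicate 4, replicates 1 to 3 of WT DMSO, and replicates 2 and 3 of WT EZ (adjusted p of up to 0.161, without DKO DMSO replicate 3). With DESeq2 size factors its adjusted p was 0.0535.

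ACACA, the enzyme between ACLY and FASN, was nearly level in WT, at 1553, 1479, 1445 and 1508 CPM in EZ, against 1545, 1559, 1578 and 1460.1 CPM in DMSO. Its log2 fold change there was −0.037 ± 0.10 with a 95% interval of −0.26 to 0.18, so a fall of the size fitted for ACLY in the same cells lies outside it. In DKO it was at 717, 791, 845 and 865 CPM in EZ, against 1021, 1096, 1073 and 844 CPM in DMSO, where replicate 4 of DKO DMSO lay inside the range of EZ (−0.33 ± 0.10, edgeR adjusted p = 0.146). Without DKO DMSO replicate 4 this difference passed the threshold (−0.42, adjusted p = 0.048), as it did with DESeq2's Wald test (adjusted p = 0.0312). So did the average over both genotypes without that library (−0.23, adjusted p = 0.0428). SREBF1 itself had log2 fold changes of −0.15 ± 0.14 in DKO (95% interval −0.45 to 0.14) and −0.17 ± 0.14 in WT (−0.46 to 0.12), neither past the threshold. Gene-level counts do not separate the SREBF1 isoforms, and 6.92% of its exon bases overlap RAI1 on the other strand.

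SCD was at 1317, 1264, 1243 and 1831 CPM in DKO EZ, against 1585, 2436, 2624 and 2891 CPM in DKO DMSO. In WT it was at 1838, 1552, 1543 and 2404 CPM in EZ, against 2400.2, 3798, 3640.4 and 7359 CPM in DMSO. In both genotypes replicate 1 of DMSO was the low one and overlapped the EZ libraries, and replicate 4 of WT DMSO was the highest of all. SCD fell by 1.23 ± 0.28 on the log2 scale in WT (edgeR adjusted p = 0.0222), and the DKO value was −0.75 ± 0.28 (adjusted p = 0.217, and 0.0351 with the replicate block). Without WT DMSO replicate 4 the fall in WT was 0.80 (adjusted p = 0.0453). The WT call was lost without WT DMSO replicate 2 or any of replicates 1 to 3 of WT EZ (adjusted p of up to 0.0827, without WT EZ replicate 2), and with no low-count filter (0.11).

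FADS1 was at 190.2, 209, 207 and 267 CPM in DKO EZ, against 249, 337, 345 and 416 CPM in DKO DMSO, with DMSO replicate 1 inside the EZ range. In WT it was at 128, 110.4, 109 and 132 CPM in EZ, against 156, 184, 177 and 296 CPM in DMSO, without overlap. It fell by 0.76 ± 0.19 on the log2 scale in WT (edgeR adjusted p = 0.0322), and in DKO the value was −0.63 ± 0.19 (adjusted p = 0.111, and 0.00846 with the replicate block). The WT call was lost without replicate 2 or 4 of WT DMSO or any WT EZ library (adjusted p of up to 0.111, without WT EZ replicate 2). The DKO value passed without WT DMSO replicate 4 (−0.63, adjusted p = 0.0301), with upper-quartile scaling (0.0301) and with library totals (0.028). FADS2, whose annotated span on chromosome 11 holds FADS1, was at 204, 559.6, 573 and 700.5 CPM in DKO EZ, against 604, 953, 1121 and 969 CPM in DKO DMSO. In WT it was at 228, 392, 368 and 644 CPM in WT EZ, against 549, 617, 603 and 1046 CPM in WT DMSO. Replicate 1 was the lowest FADS2 library in each of the 4 groups. The spread between replicate numbers was thus wide, and FADS2 passed within a genotype only with the block, at −0.94 log2 in DKO (edgeR adjusted p = 0.00639) and −0.83 in WT (adjusted p = 0.0071), against adjusted p of 0.312 and 0.298 without it. Averaged over both genotypes the value was −0.81 ± 0.25 (adjusted p = 0.0564, and 0.000378 with the block), and it passed with DESeq2's Wald test (0.0116). Unblocked in edgeR it passed without DKO DMSO replicate 1 (0.0471), DKO EZ replicate 4 (0.0484) or WT EZ replicate 4 (0.0243), and with the RN7SL1 set as a term (0.0141), upper-quartile scaling (0.0237) or library totals (0.0374). FADS1 and FADS2 share 490 exon bases on opposite strands (4.79% of the exon bases of FADS1 and 4.44% of those of FADS2), and the strand setting of the counts is not given in the sources used here. Counts of FADS1 could thus include reads of FADS2, which was not tested.

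ELOVL7 was at 98.2, 57.2, 59.4 and 66.1 CPM in DKO EZ, against 145, 87.0, 84.8 and 66.2 CPM in DKO DMSO. In WT it was at 55.2, 74.5, 68.4 and 41.7 CPM in EZ, against 159.6, 143, 114 and 85.9 CPM in DMSO, with all EZ libraries below all DMSO libraries. The fall in WT was 1.07 ± 0.26 on the log2 scale (edgeR adjusted p = 0.0316), and the DKO value was −0.45 ± 0.26 (adjusted p = 0.502, and 0.0667 with the replicate block). The WT call was lost without any of replicates 1 to 3 of WT DMSO or replicates 1, 3 or 4 of WT EZ (adjusted p of up to 0.11, without WT EZ replicate 4), with upper-quartile scaling (0.0526) and with no low-count filter (0.0575). ELOVL5 had log2 fold changes of 0.13 ± 0.15 in DKO and −0.14 ± 0.15 in WT (95% intervals −0.18 to 0.45 and −0.45 to 0.17). ELOVL6 had −0.28 ± 0.21 and −0.07 ± 0.21 (−0.71 to 0.15 and −0.50 to 0.36).

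**Figure D3:**
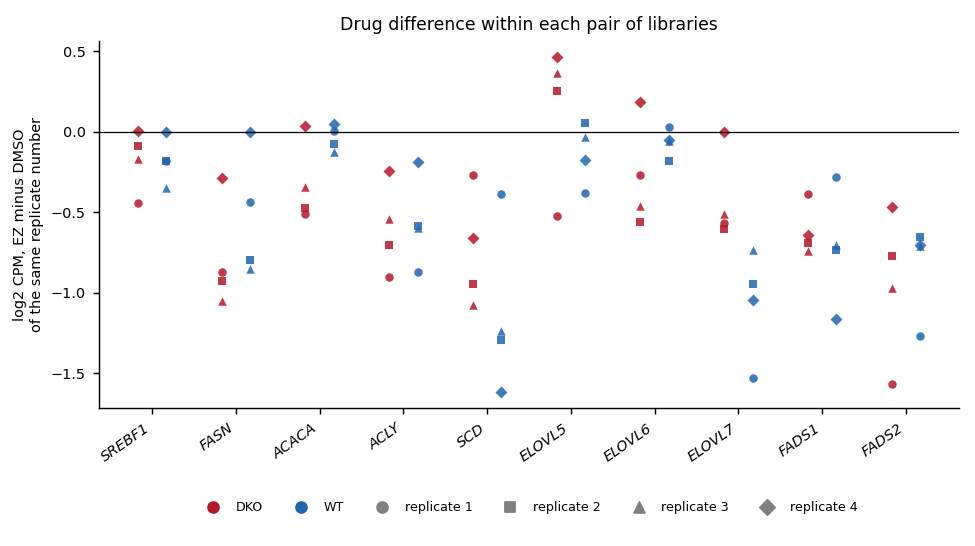
Difference in log2 CPM between the EZ and the DMSO library of the same replicate number (vertical axis) for each of the 10 genes, in DKO (red, left) and WT (blue, right); the marker gives the replicate number. All 8 differences are below 0 for FASN, ACLY, SCD, ELOVL7, FADS1 and FADS2, and they lie on both sides of 0 for SREBF1, ACACA, ELOVL5 and ELOVL6. The highest SREBF1 difference is 0.0074.

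The drug effect did not pass the test of a difference between genotypes for any of the 10 genes (edgeR interaction, 0 of 10, against 0.0% of all tested genes). In this fit, without the replicate block, 0 of the 10 genes and 648 of 21810 genes had an unadjusted p under 0.05. With the block within genotypes 2145 of 21810 genes did, and the count among the 10 is not given here. After adjustment DESeq2 called 10 genes and that block 39 (0.179%), none of them among the 10. The difference, DKO less WT, ran from −0.31 ± 0.27 (log2, SE) for FASN to 0.62 ± 0.36 for ELOVL7. The 95% interval of the difference was −0.87 to 0.26 for FASN and −0.15 to 1.39 for ELOVL7. With the replicate block the ELOVL7 value was 0.64 ± 0.18 (adjusted p = 0.252). For that gene the difference between paired libraries was −0.61 to −0.0022 log2 in the 4 DKO pairs and −1.53 to −0.74 in the 4 WT pairs, without overlap. ELOVL7 is shown because its value was the highest of the 10, so these ranges add no support to a difference. The share of all tested genes without such overlap was not counted.

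Around these enzymes, 76 other genes of the pathway were examined, of which 75 could be tested. The counts below stand against these shares of all tested genes. With EZ, 1.03% rose and 0.445% fell in DKO, 2.25% and 1.07% in WT, and 5.99% and 3.32% in the average. With the replicate block, 1010 of 21810 genes rose and 681 fell in DKO, 1672 and 969 in WT, and 2660 and 1905 in the average. Among 16 regulators of SREBP and lipogenic transcription, 1 gene rose and 1 fell with EZ in DKO, and 1 rose and 2 fell in WT. With the replicate block, 2 rose and 2 fell in DKO, and 1 rose and 3 fell in WT. INSIG1, which retains SREBP in the endoplasmic reticulum and is itself an SREBP target, was at 103, 104, 106 and 161 CPM in DKO EZ, against 208, 336, 384 and 429 CPM in DKO DMSO. In WT it was at 125, 151, 166 and 233 CPM in WT EZ, against 303, 537, 542 and 974 CPM in WT DMSO. All EZ libraries were below all DMSO libraries of their genotype, and INSIG1 fell by 1.52 ± 0.31 on the log2 scale in DKO (edgeR adjusted p = 0.024) and 1.80 ± 0.31 in WT (adjusted p = 0.00502). The retinoid receptor gene RXRA, whose product pairs with the LXR receptors, rose by 0.58 ± 0.10 in DKO and 0.70 ± 0.10 in WT (adjusted p = 0.00692 and 0.000637), and the phosphatidate phosphatase gene LPIN1 fell in WT (−1.15 ± 0.21, adjusted p = 0.00699). SREBF2 fell in the average over both genotypes (−0.49 ± 0.11, adjusted p = 0.0108). Within genotypes it passed with the block (−0.43 in DKO and −0.51 in WT, adjusted p = 0.0338 and 0.0102) and not without it (0.202 and 0.0786). SCAP (−0.029 ± 0.08), INSIG2 (0.36 ± 0.16) and the acetyl-CoA synthetase gene ACSS2 (−0.16 ± 0.09) did not pass in that average (adjusted p = 0.892, 0.183 and 0.291). In the average over both genotypes INSIG1 was at −1.66 ± 0.22, LPIN1 at −0.81 ± 0.15 and RXRA at 0.64 ± 0.07 (adjusted p = 0.000253, 0.0028 and 2.97e-05). The call of INSIG1 in DKO was lost without any 1 of 5 libraries (adjusted p of up to 0.084, without DKO EZ replicate 1).

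Cholesterol synthesis and uptake were represented by 8 target genes of SREBP2. Of these, 1 fell in DKO (0.445% of all tested genes), 6 in WT (1.07%) and 7 in the average (3.32%), with 0 higher. With the replicate block the counts were 6, 8 and 8 (3.12%, 4.44% and 8.73% of all tested genes). The median log2 fold change of the 8 genes was −0.52 in DKO and −0.82 in WT. FDFT1, squalene synthase, fell in WT (−1.02 ± 0.20, edgeR adjusted p = 0.0103), and in DKO it passed with the block alone (−0.66, adjusted p = 0.00601, against 0.13 without it). Of 13 tested genes of elongation and desaturation outside the 10, 0 passed within a genotype and 2 rose in the average, ELOVL1 (0.35 ± 0.09) and the ceramide desaturase gene DEGS1 (0.40 ± 0.11; adjusted p = 0.0188 and 0.0254). With the block, 0 passed in DKO, 3 rose and 1 fell in WT, and 4 rose and 1 fell in the average. In WT these included ELOVL1 (0.47, adjusted p = 0.00178) and SCD5 (0.64, adjusted p = 0.00115). Of 15 genes of acyl-CoA and glycerolipid synthesis, the acyl-CoA synthetase gene ACSL3 fell in both genotypes (−0.71 ± 0.15 in DKO and −0.82 ± 0.15 in WT, adjusted p = 0.0268 and 0.00629), while DGAT2, which makes triglyceride, rose in WT (0.61 ± 0.13, adjusted p = 0.017). With the block, 1 of the 15 rose and 1 fell in DKO, and 5 rose and 1 fell in WT, among them LPCAT1, which rose in both (adjusted p = 0.0125 in DKO and 0.00115 in WT). Of 12 genes of fatty acid oxidation, CPT1A, which lets fatty acids into mitochondria, fell in DKO (−0.76 ± 0.16, adjusted p = 0.024) and PPARA, a receptor that drives oxidation genes, rose there (0.62 ± 0.14, adjusted p = 0.0291). With the block, 3 of the 12 rose and 2 fell in DKO, and 2 rose and 1 fell in WT, where CPT1A fell (−0.44, adjusted p = 0.0318). Of 11 genes that supply acetyl-CoA and NADPH, 0 passed within a genotype and 1 rose in the average. With the block, 0 passed in DKO, 1 rose in WT, and 2 rose and 1 fell in the average. In the average FDFT1 was at −0.84 ± 0.14, ACSL3 at −0.77 ± 0.11 and CPT1A at −0.60 ± 0.11 (adjusted p = 0.00151, 0.000281 and 0.00282). Higher in the average were DGAT2 (0.40 ± 0.09), the lysophospholipid acyltransferase gene LPCAT1 (0.42 ± 0.11), PPARA (0.51 ± 0.10) and HADHB, a subunit of the mitochondrial trifunctional protein of oxidation (0.55 ± 0.12; adjusted p = 0.0127, 0.0204, 0.00287 and 0.00732). Several of these calls depended on single libraries. In DKO, PPARA was lost without any 1 of 7 libraries (adjusted p of up to 0.105, without DKO EZ replicate 1), ACSL3 of 7 libraries (adjusted p of up to 0.104, without DKO EZ replicate 1) and CPT1A of 2 libraries (adjusted p of up to 0.0789, without DKO DMSO replicate 2). DGAT2 in WT was lost without any 1 of 3 libraries (adjusted p of up to 0.055, without WT DMSO replicate 3). In the average, ELOVL1 was lost without any 1 of 4 libraries (adjusted p of up to 0.0652, without WT DMSO replicate 2) and DEGS1 of 3 libraries (adjusted p of up to 0.0615, without DKO DMSO replicate 2). The 15 mitosis genes had a median log2 fold change of −0.84 in DKO and −0.52 in WT, with none past the threshold, and their part in the drug results was not tested.

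The knockout of RB and p53 went with lower transcripts of the synthesis enzymes and of SREBF1, and with higher FADS1. In EZ, 5 of the 10 genes were lower in DKO than in WT (11.4% of all tested genes were) and 1 was higher (9.29%). In DMSO, 6 were lower (9.7%) and 1 was higher (8.91%). The median log2 fold change of the 10 genes was −0.45 in EZ and −0.60 in DMSO, against −0.013 and −0.060 over all tested genes. In EZ, 5 genes had all DKO libraries below all WT libraries (13.4% of all tested genes) and FADS1 had them all above (10.6%), and in DMSO 5 genes had them all below (10.9%). SREBF1, ACLY, ACACA, FASN and ELOVL5 were without overlap in both. The comparisons share groups, since each group serves in 1 drug and 1 genotype comparison.

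**Figure D4:**
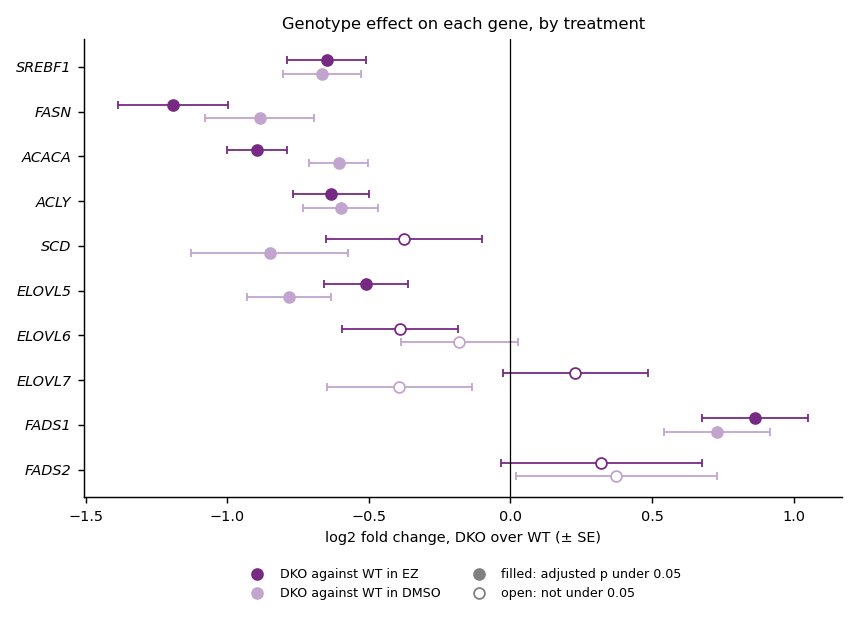
Log2 fold change of DKO over WT for the 10 genes (horizontal axis), fitted in EZ (dark, upper of each pair) and in DMSO (light, lower), with SE as bars; filled points had an edgeR adjusted p under 0.05. SREBF1, FASN, ACACA, ACLY and ELOVL5 are filled below 0 in both treatments, FADS1 is filled above 0 in both, and SCD is filled in DMSO.

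SREBF1 was at 111, 166, 177 and 171 CPM in DKO EZ, against 228, 236, 225 and 291 CPM in WT EZ. It was at 150.3, 177, 199 and 169.9 CPM in DKO DMSO, against 259, 268, 287 and 290.2 CPM in WT DMSO. The highest DKO library was below the lowest WT library under both treatments. SREBF1 was lower in DKO, at −0.65 ± 0.14 in EZ and −0.67 ± 0.14 in DMSO on the log2 scale (edgeR adjusted p = 0.00275 and 0.0025), about the size seen for ACLY (−0.63 ± 0.13 and −0.60 ± 0.13, adjusted p = 0.00246 and 0.00402). Neither gene lost its call when 1 library was left out, and ACLY in DMSO missed the threshold with library totals in place of TMM (adjusted p = 0.0539). Among the 10 libraries with little RN7SL1, SREBF1 and ACLY passed in DMSO (adjusted p = 0.0373 and 0.0496) and not in EZ (−0.45 and −0.46, adjusted p = 0.0783 and 0.0803).

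ACACA and FASN, the committed step and the synthase, showed the largest falls in DKO cells under EZ among the 10 genes. ACACA averaged 805 ± 66.1 CPM in DKO EZ, against 1496 ± 45.8 CPM in WT EZ, and 1008 ± 114 CPM in DKO DMSO, against 1536 ± 52.1 CPM in WT DMSO (SD, n = 4 each). Its log2 fold change was −0.89 ± 0.11 in EZ (edgeR adjusted p = 1.19e-05) and −0.61 ± 0.11 in DMSO (adjusted p = 0.000575). FASN, whose libraries are given above, averaged 901 ± 129.6 CPM in DKO EZ, against 2058 ± 554 CPM in WT EZ, and 1572 ± 374 CPM in DKO DMSO, against 2905 ± 390.5 CPM in WT DMSO. It was lower in DKO, at −1.19 ± 0.19 in EZ and −0.89 ± 0.19 in DMSO (adjusted p = 0.000296 and 0.00337). No single library ended these calls, and among the 10 libraries with little RN7SL1 the FASN value in DMSO missed the threshold (−0.84, adjusted p = 0.0655). The lowest FASN library of all was DKO EZ replicate 1, at 729 CPM, and the highest WT DMSO replicate 3, at 3196 CPM.

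ELOVL5 was at 238, 272, 285 and 359 CPM in DKO EZ, against 404, 426, 392 and 421 CPM in WT EZ. It was at 342, 229, 221 and 260.5 CPM in DKO DMSO, against 526, 409, 400.3 and 475 CPM in WT DMSO. DKO libraries were below WT libraries in both treatments, at a log2 fold change of −0.51 ± 0.15 in EZ (edgeR adjusted p = 0.0207) and −0.78 ± 0.15 in DMSO (adjusted p = 0.0012). Further settings ended the call in EZ besides single libraries: library totals (adjusted p = 0.169), no low-count filter (0.0676), EZ without both replicates 1 (0.133) and the libraries with little RN7SL1. It was also lost without DKO DMSO replicate 2 or 4, DKO EZ replicate 1, 2 or 3, or WT EZ replicate 1, 2 or 4 (adjusted p of up to 0.116, without DKO EZ replicate 2). Among the 10 libraries with little RN7SL1 the value in EZ was −0.29 (adjusted p = 0.27). SCD, whose libraries are given above, was lower in DKO, at −0.85 ± 0.28 in DMSO (adjusted p = 0.0416), and the value in EZ was −0.38 ± 0.28 (adjusted p = 0.391). The SCD call was lost when any library but WT DMSO replicate 1 or WT EZ replicate 4 was left out (adjusted p from 0.055 to 0.232). Without WT DMSO replicate 4 the SCD value was −0.41. It was also lost with library totals (0.0853), with the RN7SL1 set as a term (0.0553), with no low-count filter (0.194) and among the 10 libraries with little RN7SL1 (0.169).

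FADS1 went the other way. All 4 DKO EZ libraries (190.2 to 267 CPM) were above all 4 WT EZ libraries (109 to 132 CPM), while in DMSO the highest WT library, replicate 4, lay inside the DKO range (249 to 416 CPM in DKO and 156 to 296 CPM in WT). FADS1 was higher in DKO by 0.86 ± 0.19 in EZ (edgeR adjusted p = 0.00308) and by 0.73 ± 0.19 in DMSO (adjusted p = 0.0105), with no call lost when 1 library was left out or among the 10 libraries with little RN7SL1 (1.09 and 0.85). FADS2, whose span on the opposite strand holds FADS1, had 0.32 ± 0.36 in EZ and 0.37 ± 0.36 in DMSO (adjusted p = 0.6 and 0.529). The limit on counts of these overlapping genes given above holds here too. ELOVL6 had −0.39 ± 0.21 and −0.18 ± 0.21, and ELOVL7 0.23 ± 0.26 and −0.39 ± 0.26 (adjusted p of at least 0.207 for both genes). The 16 libraries held 69.9 to 170.2 CPM of ELOVL6.

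In the wider pathway, 0 of 16 regulators were higher and 5 were lower in DKO in each treatment. Of all tested genes, 9.29% were higher and 11.4% lower in EZ, and 8.91% and 9.7% in DMSO. THRSP, a lipogenic cofactor, was lower, at −1.49 ± 0.38 in EZ and −1.77 ± 0.38 in DMSO, at no more than 4.46 CPM in any library (edgeR adjusted p = 0.0101 and 0.00298). MID1IP1, which promotes the polymerisation of acetyl-CoA carboxylase, was lower in both treatments (−0.77 ± 0.19 in EZ and −0.72 ± 0.18 in DMSO, adjusted p = 0.00656 and 0.011). LPIN1 was lower in DMSO (−0.89 ± 0.21, adjusted p = 0.00676). SREBF2 was −0.43 ± 0.16 in EZ and −0.52 ± 0.16 in DMSO (adjusted p = 0.0665 and 0.0303), while INSIG1 did not pass (−0.51 ± 0.30 and −0.79 ± 0.30, adjusted p = 0.275 and 0.0839). Of the 8 SREBP2 targets, FDFT1 was lower in both treatments (−0.63 ± 0.20 and −0.99 ± 0.20, adjusted p = 0.0362 and 0.00236), and the other 7 did not pass. ACSS2 was lower in both (−0.37 ± 0.12 and −0.36 ± 0.12, adjusted p = 0.04 and 0.0482). The ACSS2 call was lost without any 1 of 14 libraries (adjusted p of up to 0.239, without DKO EZ replicate 2) in EZ and 16 libraries (adjusted p of up to 0.277, without DKO DMSO replicate 1) in DMSO. The call of SREBF2 in DMSO was lost without any 1 of 13 libraries (adjusted p of up to 0.169, without WT DMSO replicate 4), that of MID1IP1 in DMSO of 2 libraries (adjusted p of up to 0.057, without DKO DMSO replicate 2), that of FDFT1 in EZ of 12 libraries (adjusted p of up to 0.169, without WT EZ replicate 4) and that of THRSP in EZ of 1 library (adjusted p of up to 0.0741, without WT EZ replicate 4).

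Other elongation and desaturation genes included both directions in DKO cells. In EZ, 3 of 13 were higher and 2 lower (9.29% and 11.4% of all tested genes). In DMSO, 3 were higher and 1 lower (8.91% and 9.7%). SCD5, a second stearoyl-CoA desaturase, was at 58.4 to 113 CPM in DKO EZ, against 24.6 to 50.2 CPM in WT EZ. Under both treatments all DKO libraries were above all WT libraries, by 1.28 ± 0.24 log2 in EZ and 1.80 ± 0.24 in DMSO (adjusted p = 0.000926 and 5.26e-05). HACD1, a dehydratase of the elongation cycle, was also higher (1.58 ± 0.30 and 1.40 ± 0.29, adjusted p = 0.00103 and 0.0027), at no more than 3.19 CPM in any library. DEGS1 was lower (−1.31 ± 0.15 and −1.43 ± 0.15, adjusted p = 1.14e-05 and 4.52e-06). Of the 11 supply genes, ME1, which yields NADPH, was lower in DMSO (−1.35 ± 0.35, adjusted p = 0.013). The citrate carrier gene SLC25A1 was lower in EZ (−0.60 ± 0.13, adjusted p = 0.0024) and in DMSO (−0.40 ± 0.13, adjusted p = 0.0322), and the call in DMSO was lost without any 1 of 15 libraries (adjusted p of up to 0.189, without DKO DMSO replicate 1). ACACB, the mitochondrial carboxylase, was higher in both (0.48 ± 0.11 and 0.36 ± 0.11, adjusted p = 0.00524 and 0.0331). ME1 in DMSO was highest in WT replicate 4, at 871 CPM against 240.1 to 297 CPM in the other 3 WT DMSO libraries. Of 15 genes of acyl-CoA and glycerolipid synthesis, DGAT1 and AGPAT3 were lower in both treatments (DGAT1 −0.77 ± 0.17 in EZ and −0.57 ± 0.17 in DMSO, AGPAT3 −0.68 ± 0.14 and −0.61 ± 0.14). Of 12 oxidation genes, ACAA2, the last enzyme of the mitochondrial cycle, was higher in DMSO (1.58 ± 0.22, adjusted p = 7.96e-05). With the replicate block its drug effect also differed between genotypes (−0.96, DKO less WT, edgeR adjusted p = 0.0366). The block called 0.179% of all tested genes for that difference. Without the block the difference for ACAA2 did not pass. ELOVL1 was lower in EZ (−0.43 ± 0.12, adjusted p = 0.0202), as was CPT1A (−0.59 ± 0.16, adjusted p = 0.0125). MLYCD, malonyl-CoA decarboxylase, was lower in both (−0.59 ± 0.16 in EZ and −0.67 ± 0.16 in DMSO, adjusted p = 0.0123 and 0.00578), and GPAM, which starts glycerolipid synthesis, was higher in DMSO (0.43 ± 0.10, adjusted p = 0.00479). In EZ, ELOVL1 was lost without any 1 of 9 libraries (adjusted p of up to 0.149, without DKO EZ replicate 2), CPT1A of 1 library (adjusted p of up to 0.0573, without WT EZ replicate 4) and MLYCD of 1 library (adjusted p of up to 0.0757, without DKO EZ replicate 2). The ME1 call was lost without any 1 of 3 libraries (adjusted p of up to 0.0556, without DKO DMSO replicate 1), that of DGAT1 in DMSO of 4 libraries (adjusted p of up to 0.125, without DKO DMSO replicate 2) and that of ACACB in DMSO of 1 library (adjusted p of up to 0.0771, without WT DMSO replicate 2).

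Across the 16 libraries, the gene whose log2 CPM followed FASN most closely among 10688 protein-coding genes with a mean of at least 5 CPM was ACLY (Pearson r = 0.947, and 0.736 after subtraction of group means). It was followed by THG1L, a tRNA-modifying enzyme (0.942 and 0.588), the lipase ABHD2 (0.937 and 0.545), the ubiquitin ligase UBE4B (0.933 and 0.682) and the epithelial transcription factor EHF (0.927 and 0.292). For SCD the closest genes were LSS (0.967 and 0.900), LPIN1 (0.961 and 0.894), SREBF2 (0.959 and 0.943), INSIG1 (0.958 and 0.942) and HMGCS1 (0.955 and 0.875), of which LSS and HMGCS1 are enzymes of cholesterol synthesis. The 16 points share groups and libraries, and these values are descriptions with no test. SCD and FADS1 had r = 0.342 across the 16 libraries and 0.950 after subtraction of group means, which was 0.906 without WT DMSO replicate 4. SREBF1 and FADS2 had 0.232 and 0.895, and ELOVL7 ran against SCD and FADS1 once group means were subtracted (−0.761 and −0.806).

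**Figure D5:**
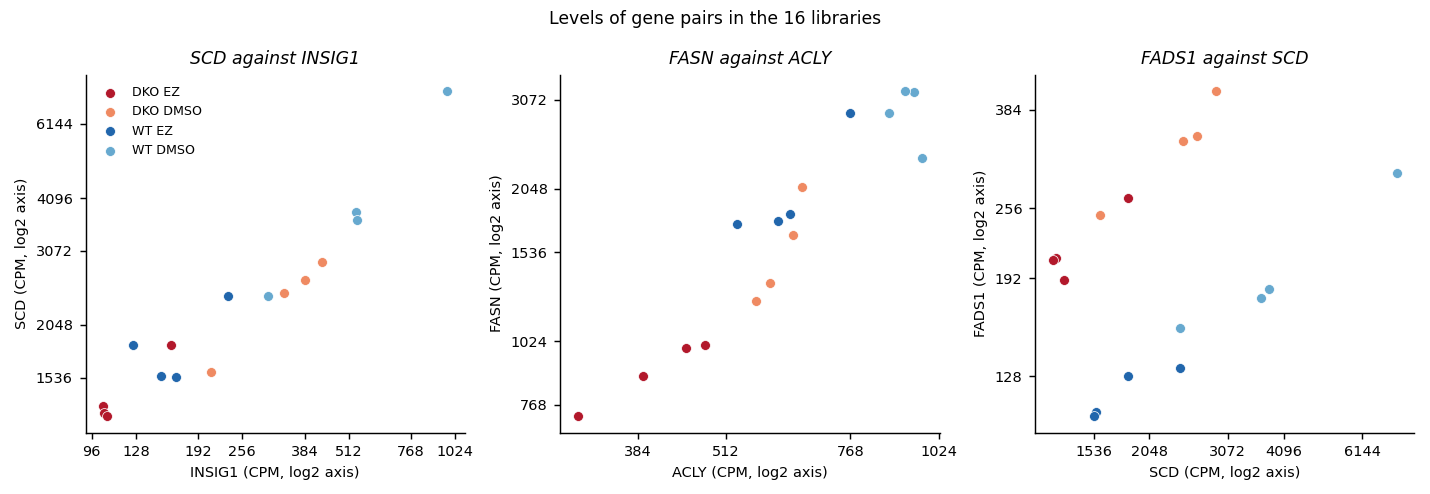
Levels of SCD against INSIG1, FASN against ACLY and FADS1 against SCD in the 16 libraries (CPM, log2 axes), coloured by group. SCD and INSIG1, and FASN and ACLY, lie along 1 line through all 4 groups, while FADS1 against SCD forms a DKO line above a WT line.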

How the data were processed

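The deposited files hold whole-number counts per gene, which the authors made from their reads. The submitters' processing notes name STAR 2.7.3a and GRCh38, and the sources used here give neither the counting tool nor its strand setting. The 16 libraries were grouped by the labels. The 10 genes, the lists of other pathway genes and the marker lists were chosen with earlier results of these data known.

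The counts as deposited were tested with edgeR 4.0.16 (quasi-likelihood F-test, robust) in R 4.3.3, with limma 3.58.1 installed beside it. Library sizes were scaled by TMM. The low-count filter (filterByExpr, minimum count 10 and minimum total 15) left 21810 genes, 1 mean per group was fitted to all 16 libraries, and p-values were adjusted by the Benjamini-Hochberg method over all 21810 genes with a threshold of 0.05. Every adjusted p in the text comes from edgeR unless DESeq2 is named. Genes varied between libraries of a group by 28.1% (the square root of edgeR's common dispersion of 0.0787). Values per library are CPM on TMM-scaled sizes. Library totals of 11823438 to 47678648 counts put at least 725 counts behind each of the 10 genes in each library, so the spread between libraries, not counting error, limits precision. Libraries of a group differed by more than counting noise (chi-square per degree of freedom of 5.37 to 104), so none was counted as a duplicate. The closest pairs were replicates 2 and 3 of WT EZ (5.37) and replicates 2 and 3 of WT DMSO (8.46). Whether such a pair came from 1 culture is not given in the sources used here, and all were counted as separate replicates.

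EZ and DMSO libraries with the same replicate number deviated together from their group means (r = 0.326 to 0.664 over genes for the 8 pairs), and each EZ library correlated best with the DMSO library of its own number. The number was therefore taken to pair them, and a fit with the replicate number as a block within each genotype is given beside the drug results of the 10 genes where it changes a call, and as counts with examples for the other lists. Across genotypes r ran from −0.0668 to 0.674, and no pairing was used there.

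The alternatives were DESeq2 1.42.0 (Wald test, and its size factors in edgeR), upper-quartile scaling, library totals, no filter, the replicate block, the RN7SL1 set as a term, replicate 1 of both EZ groups left out, each library left out, and, chosen after seeing the data, the 10 libraries with little RN7SL1 alone. The fit was tested on simulated counts for EZ against DMSO in WT: of 50 genes each changed by 0.5, 1, 1.5 and 2 on the log2 scale it called 22%, 72%, 88% and 98%, and of 20893 unchanged genes it called 8. The simulated libraries varied independently, without shared deviations by replicate number or RN7SL1 set. These rates therefore hold for such libraries and can differ in the real ones. Tables and figures were made with Python 3.11.15, pandas 2.3.3 and matplotlib 3.10.9. Promoter windows came from RefSeq (GRCh38.p14). The other genes named are, in each comparison and list, at most 2 higher and 2 lower past the threshold with the largest change (and no less than 1 CPM on average in whichever group is higher). To these come INSIG1, INSIG2, SCAP, SREBF2 and ACSS2 in any case, RB1, and the 5 genes nearest to FASN and to SCD in pattern. A gene named for 1 treatment is shown for both where it passed in both. PPARG, RN7SL1 and the markers were named outside that rule. Some genes that the rule names are not reported here.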

Additional observations from a re-analysis of the deposited data

Results flagged for a closer look

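Among the 40 sets of 4 libraries (10 genes in 4 groups), 5 held a library that stood apart from the other 3 by Dixon's criterion on CPM. Chance gives about 1 in 20 sets if values are normal. The 10 genes share the same libraries and vary together, so the sets are not independent. Whether 5 is more than chance gives was not tested. SREBF1 was at 111 CPM in DKO EZ replicate 1, against 166 to 177 CPM in the other DKO EZ libraries. SREBF1 was at 291 CPM in WT EZ replicate 4, against 225 to 236 CPM in the others of that group. FASN was at 2887 CPM in WT EZ replicate 4, against 1746 to 1827 CPM. SCD was at 1831 CPM in DKO EZ replicate 4, against 1243 to 1317 CPM. FADS2 was at 1046 CPM in WT DMSO replicate 4, against 549 to 617 CPM. In 4 of the 5 the library was a replicate 4 and the highest of its group, and in DKO EZ replicate 1 it was the lowest.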

How the results depend on the processing

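The 24 called results for the 10 genes kept their direction under every alternative run. They stayed past the threshold in 317 of 384 fits that left out 1 library and in 196 of 227 other fits. The number of the 10 genes called for EZ against DMSO in DKO, 2, was 1 with DESeq2 size factors, 0 among the 10 libraries with little RN7SL1, 0 without replicate 1 of both EZ groups and 0 to 3 with 1 library left out. With the replicate block it was 5, both with 1 block over genotypes and with blocks within genotypes. Over all tested genes the calls in DKO were 322 of 21810 in the main fit. They were 13 of 23416 among the libraries with little RN7SL1 and 227 of 22754 without replicate 1 of both EZ groups. The number called in WT, 4, was 2 with no low-count filter, 1 among the libraries with little RN7SL1, 0 without replicate 1 of both EZ groups and 0 to 4 with 1 library left out. Over all tested genes the calls in WT were 724 of 21810 in the main fit and 436 of 46997 with no filter. They were 371 of 23416 among the libraries with little RN7SL1 and 574 of 22754 without replicate 1 of both EZ groups. The average over genotypes gave 2 in place of 5, and DKO against WT in EZ 3 in place of 6, among the libraries with little RN7SL1, a set with fewer samples. Over all tested genes these comparisons gave 642 in place of 2031 and 2539 in place of 4508. With 1 block over genotypes, ELOVL6 was also called in DKO against WT in EZ (adjusted p = 0.021). The replicate blocks changed no other call of the 10 genes beyond those given with each gene. Values that were not called could change sign, among them those of ELOVL6 with EZ in WT (0.013 without replicate 1 of both EZ groups, −0.15 to 0.029 with 1 library left out), ELOVL6 in DKO against WT in DMSO (0.029 with library totals, −0.24 to 0.049 with 1 library left out), and ACACA with EZ in WT (−0.045 to 0.014 with 1 library left out). The drug effect of ELOVL5 in the average and the differences of drug effect between genotypes of SREBF1, ACLY, FADS1 and FADS2 also did so. The cause was not tested. With library totals the median log2 fold change of all genes in DKO against WT was 0.23 in EZ and 0.14 in DMSO, against −0.013 and −0.060 with TMM. The calls over all genes in DMSO were then 3479 higher and 1082 lower, against 1943 and 2115 with TMM. The block within genotypes cannot be fitted for the genotype comparisons. Fits with 1 library left out test 22221 to 22807 genes, since the filter then needs fewer libraries, and part of their shift comes with that.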
